A study of Mus musculus with 12 samples.

Results

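The genes described here belong to the unfolded protein response of the endoplasmic reticulum (ER) and to the integrated stress response. They were chosen by name: 32 mouse gene symbols were matched to the Ensembl identifiers of the deposited table of 54532 genes, and all 32 were found. A gene was tested where at least 3 of the 12 libraries held at least 1 FPKM (fragments per kilobase of gene, as scaled between libraries by the authors). This kept 29 of the 32 genes and 11335 genes of the whole table. Trib3, Chac1 and Vldlr fell under that level. Of the 29 genes, 26 held at least 1 FPKM in all 12 libraries, while Ddit3 did so in 11, Sesn2 in 9 and Ddit4 in 4.

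Proteins that enter the ER are folded there by chaperones such as BiP (the product of Hspa5) and by disulfide isomerases, and those that stay misfolded are sent back to the cytosol for degradation. When unfolded proteins accumulate, the membrane sensors IRE1 (Ern1), PERK (Eif2ak3) and ATF6 are activated: IRE1 splices the mRNA of Xbp1, ATF6 is cut to release a transcription factor, and PERK phosphorylates the initiation factor eIF2α. Phosphorylation of eIF2α, by PERK or by related kinases, is the core of the integrated stress response: it lowers translation in general, raises that of Atf4, and is reversed by a phosphatase whose stress-inducible subunit is GADD34 (Ppp1r15a). Macrophages and osteoclasts are both secretory cells, and IRE1 and XBP1 are known to take part in the response of macrophages to LPS.

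The study sequenced RNA of wild-type mouse cells grown from bone marrow with a source of M-CSF. Macrophages received no RANKL, and osteoclasts were made from such macrophages with RANKL, given as 100 ng/mL in the sample labels. On day 5 both cell types were left untreated or received lipopolysaccharide (LPS, part of the outer membrane of bacteria) at 100 ng/mL for 3 h, with 3 libraries in each of the 4 groups. The labels used here give neither the age or number of the mice nor whether the 3 libraries of a group came from separate animals or cultures, so that the p-values measure the spread between these libraries, which may be technical. Libraries held 15651770 to 20281456 assigned reads as recovered from the FPKM values, and replicates had a Pearson correlation of 0.9919 to 0.9946. All 10 osteoclast markers were present and summed to between 29220 and 32220 FPKM in osteoclast libraries, against 16.3 to 29.0 FPKM in macrophage libraries. The 10 macrophage markers summed to between 1600 and 2610 FPKM in macrophages and between 381.5 and 430.7 FPKM in osteoclasts.

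Promoters are shown for the 5 genes that held a searched motif in the 250 bases before the start of transcription and had the largest LPS effect in either cell type. The sequences are those of RefSeq on GRCm38.p6, 5′ to 3′ on the strand of the gene, and 29 of the 32 genes matched an entry (31 promoters), all but Atf6, Hyou1 and Manf. Capitals mark a motif match: the ER stress response element (CCAAT, any 9 bases, CCACG), its second form (ATTGGNCCACG), or a composite element for C/EBP and ATF factors (TGATGNAA), each on either strand. The windows are chr2:34771840-34772089 (plus strand) for Hspa5, chr8:94386179-94386428 (plus) for Herpud1, chr19:6046326-6046575 (plus) for Syvn1, chr8:84846932-84847181 (minus) for Calr and chr12:17266339-17266588 (plus) for Pdia6.
Hspa5: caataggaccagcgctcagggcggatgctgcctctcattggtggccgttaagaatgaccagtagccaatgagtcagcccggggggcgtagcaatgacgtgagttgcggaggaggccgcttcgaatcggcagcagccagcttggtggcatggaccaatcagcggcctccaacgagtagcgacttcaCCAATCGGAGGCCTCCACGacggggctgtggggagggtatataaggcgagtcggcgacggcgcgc
Herpud1: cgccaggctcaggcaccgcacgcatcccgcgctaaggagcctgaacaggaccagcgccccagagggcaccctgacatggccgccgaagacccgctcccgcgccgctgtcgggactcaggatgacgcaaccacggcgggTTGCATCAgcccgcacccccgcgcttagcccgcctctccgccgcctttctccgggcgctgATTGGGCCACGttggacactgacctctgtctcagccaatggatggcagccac
Syvn1: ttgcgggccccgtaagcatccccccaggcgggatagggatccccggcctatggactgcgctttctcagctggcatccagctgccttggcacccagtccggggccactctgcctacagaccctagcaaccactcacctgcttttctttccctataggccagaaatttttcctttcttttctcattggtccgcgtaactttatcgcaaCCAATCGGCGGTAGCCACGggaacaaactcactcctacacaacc
Calr: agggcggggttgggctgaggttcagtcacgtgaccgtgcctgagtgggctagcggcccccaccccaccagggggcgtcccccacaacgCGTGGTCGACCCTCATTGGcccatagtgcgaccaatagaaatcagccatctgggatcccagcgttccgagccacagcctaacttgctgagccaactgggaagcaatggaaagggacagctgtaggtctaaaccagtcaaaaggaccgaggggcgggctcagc
Pdia6: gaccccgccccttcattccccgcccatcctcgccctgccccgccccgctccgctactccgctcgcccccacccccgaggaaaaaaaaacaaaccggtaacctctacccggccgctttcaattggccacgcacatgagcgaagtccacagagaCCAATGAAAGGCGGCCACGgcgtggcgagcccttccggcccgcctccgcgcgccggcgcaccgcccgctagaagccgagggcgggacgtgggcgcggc
The element of Hspa5 lay 65 to 47 bases before the RefSeq start, that of Syvn1 44 to 26, that of Pdia6 98 to 80 and that of Calr, on the opposite strand, 162 to 144 bases before the start. In Herpud1 the second form lay 52 to 42 bases before the start and the composite element, on the opposite strand, 112 to 105. In the GENCODE annotation of the same build the gene begins further upstream for 3 of the 5, so that 120 of the 250 bases of Hspa5, 44 of Pdia6 and 3 of Calr lie inside the annotated gene.

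The ER stress response element was held by the promoters of 8 of the 29 matched genes, namely Calr, Canx, Creld2, Dnajc3, Hsp90b1, Hspa5, Pdia6 and Syvn1, and by 37 of all 32851 promoters in the table (0.113%). Its second form was held by Herpud1 and by 10 promoters in all (0.0304%). The composite element stood before Asns, Chac1, Herpud1 and Vldlr, and before 3.45% of all promoters. No matched gene held TGACGTGG, the XBP1 and ATF6 site called UPRE, which 0.563% of all promoters held. A match is a description of the letters and does not show that a factor was bound. The 8 genes with the full element did not share 1 value under LPS: in macrophages their log2 differences ran from 0.01 for Dnajc3 to 1.36 for Hspa5.

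The response of macrophages to LPS asks how a short exposure to a bacterial product moves these genes. In macrophages the genes did not move in a common direction. Ppp1r15a, which encodes the phosphatase subunit GADD34, rose 20.0-fold, Herpud1 and Hspa5 rose 2.74-fold and 2.57-fold, and the transcripts of the sensors Eif2ak3 and Ern1, of Ddit3 and of Sesn2 fell 2.40-fold to 5.27-fold. These 7 genes kept their direction and their call under the 3 scalings tried, that is with the values as deposited, rescaled so that every library has the same sum (TPM), and quantile normalized. Of all genes tested, 15.5% rose and 31.0% fell under all 3. The other 13 called genes had deposited log2 differences of 0.13 to 0.72 and lost their call or turned direction under at least 1 of the other scalings.

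**Figure D1:**
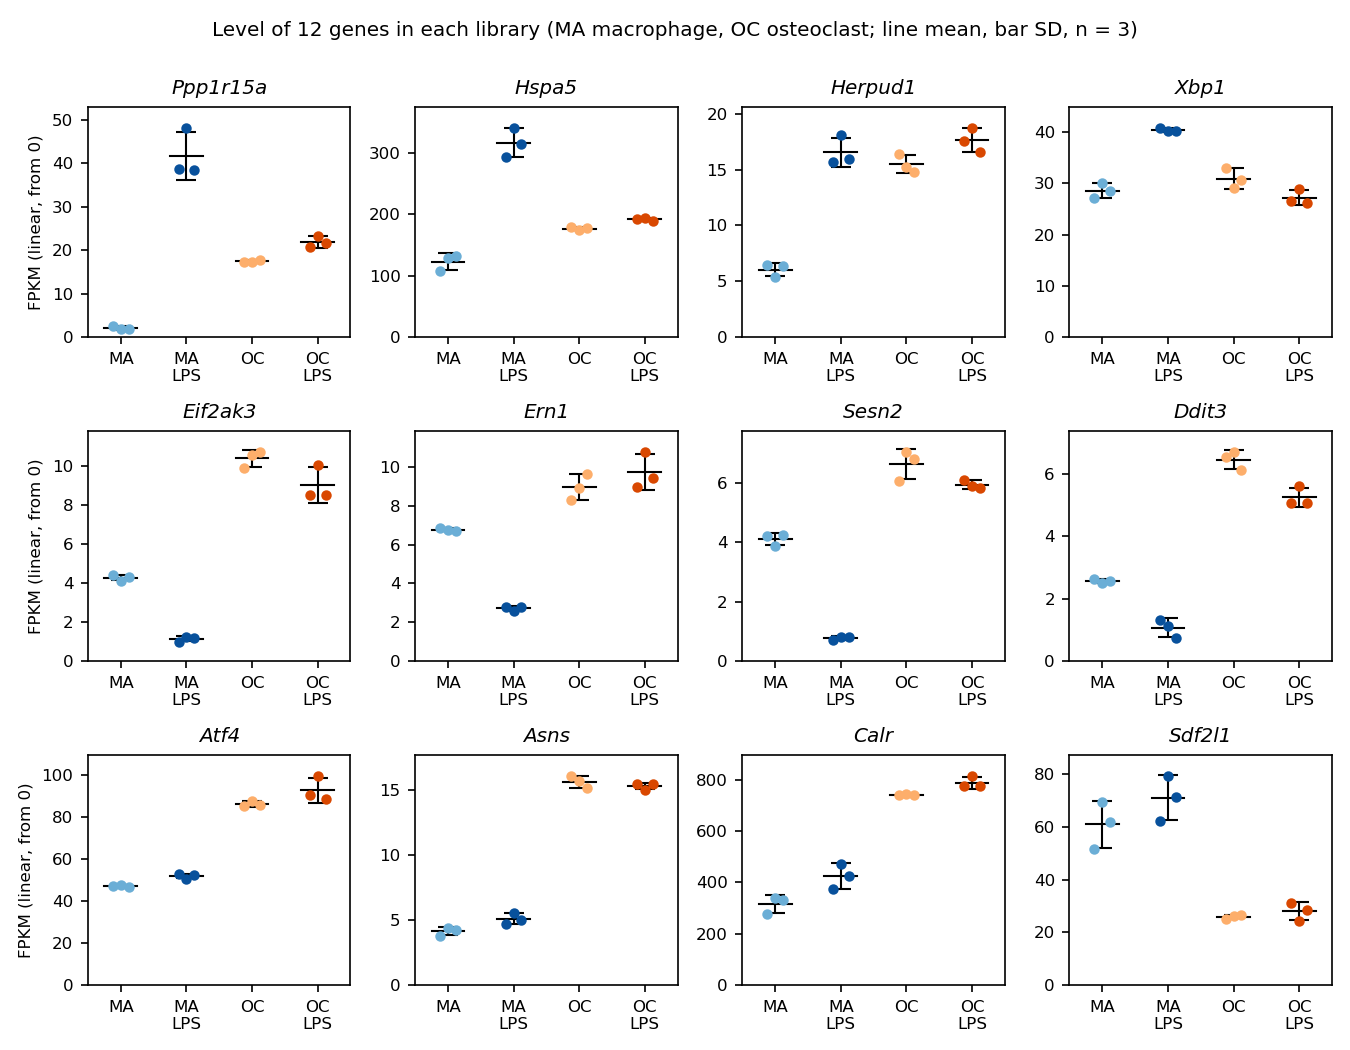
FPKM (vertical axis, linear from 0) of 12 genes in each of the 12 libraries, for untreated macrophages (MA), LPS-treated macrophages (MA LPS), untreated osteoclasts (OC) and LPS-treated osteoclasts (OC LPS). Points are libraries, horizontal lines group means and bars the SD (n = 3); Ppp1r15a runs from 1.79 to 48.1 FPKM, Sesn2, Eif2ak3, Ern1 and Ddit3 are lowest in LPS-treated macrophages, and in osteoclasts the groups without and with LPS lie close together.

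Among the sensors, Eif2ak3 (ENSMUSG00000031668, chromosome 6, 70844515 to 70905245 on GRCm38), the gene of PERK, was at 4.40, 4.12 and 4.32 FPKM in untreated macrophages and at 1.00, 1.23 and 1.19 FPKM after LPS. All LPS-treated macrophage libraries lay below all untreated ones. Differences were taken after adding 1 to the FPKM and taking log2, so that changes of low genes come out smaller than by the ratio of means. For Eif2ak3 this value was -1.30 (SE 0.07, adjusted p 5.11e-09), and the ratio of the means was 3.74-fold. Ern1 (ENSMUSG00000020715, chromosome 11, 106394650 to 106487852), the gene of IRE1α, was at 6.86, 6.77 and 6.71 FPKM without LPS and at 2.80, 2.57 and 2.78 FPKM with it, or -1.07 on the log2 scale (SE 0.07, adjusted p 2.63e-08). The replicates of either group differed by far less than the groups. Atf6, the third sensor, was at 15.7 ± 0.695 and 17.0 ± 0.597 FPKM (SD, n = 3) and did not pass the test (log2 difference 0.11, adjusted p 0.0993), with values of -0.52 under TPM and -0.24 under quantile normalization.

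Of the transcription factors, Ddit3 (ENSMUSG00000025408, chromosome 10, 127290774 to 127296288), which encodes the pro-apoptotic factor CHOP, was at 2.62, 2.51 and 2.57 FPKM in untreated macrophages and at 1.33, 1.13 and 0.748 FPKM after LPS. The groups did not overlap, and the log2 difference was -0.79 (SE 0.09, adjusted p 6.20e-06). Xbp1 (ENSMUSG00000020484, chromosome 11, 5520659 to 5525893) was at 27.1, 30.1 and 28.5 FPKM without LPS and at 40.8, 40.2 and 40.2 FPKM with it. Its deposited log2 difference was 0.49 (SE 0.05, adjusted p 6.12e-06), but the value was -0.15 (adjusted p 0.0454) under TPM and -0.04 under quantile normalization. These are values of the whole gene and do not separate the spliced from the unspliced mRNA. Atf4, the translationally controlled factor of the integrated stress response, had a deposited log2 difference of 0.13 (SE 0.04, adjusted p 0.0167), which turned to -0.51 under TPM and -0.50 under quantile normalization. Atf5, another factor whose translation rises under stress, was at 12.5 ± 0.886 and 12.8 ± 0.778 FPKM (SD, n = 3) and did not pass the test as deposited.

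The genes downstream of ATF4 split. Ppp1r15a (ENSMUSG00000040435, chromosome 7, 45522916 to 45526268) was at 2.64, 1.81 and 1.79 FPKM in untreated macrophages and at 38.5, 48.1 and 38.4 FPKM after LPS. The groups lay far apart, and the log2 difference of 3.80 (SE 0.11, adjusted p 1.60e-11) was the largest of the 29 genes in any of the comparisons. Sesn2 (ENSMUSG00000028893, chromosome 4, 132492032 to 132510501), which encodes a stress-induced inhibitor of mTORC1 signalling, went the other way, from 4.20, 3.85 and 4.23 FPKM to 0.699, 0.810 and 0.819 FPKM. Its log2 difference was -1.52 (SE 0.06, adjusted p 3.45e-10), the ratio of the means was 5.27-fold, and the groups did not overlap. Asns, the asparagine synthetase, had a deposited log2 difference of 0.24 (SE 0.06, adjusted p 0.00282), with -0.33 under TPM and 0.26 under quantile normalization. Ddit4, another inhibitor of mTORC1 signalling, was a low gene at 1.03, 0.606 and 0.793 FPKM without and 1.52, 1.11 and 1.54 FPKM with LPS. Its 101 reads over the LPS-treated macrophage libraries and 98 over the untreated ones limit its precision, and its log2 difference of 0.40 (adjusted p 0.00332) was 0.11 (adjusted p 0.538) under TPM. Ddit4 entered the test through the macrophages, with the 3 LPS-treated libraries and 1 untreated one at or above 1 FPKM, so the filter favoured a difference with macrophages high, and its calls in every comparison are to be read as descriptions.

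The other 3 genes of this group were near the limit of detection. Trib3, a pseudokinase that restrains ATF4, held 102 reads over the 3 untreated macrophage libraries, 26 over the LPS-treated ones, and 14 and 7 over untreated and LPS-treated osteoclasts. Chac1, which degrades glutathione, held 22, 6, 68 and 48 reads in the same order, and the lipoprotein receptor gene Vldlr 58, 35, 217 and 152. In a fit without the filter on low values, Trib3 had a log2 difference of -0.40 (adjusted p 0.00170) under LPS in macrophages, and neither Chac1 (adjusted p 0.555) nor Vldlr (adjusted p 1) passed.

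Among the 14 folding enzymes and chaperones, Hspa5 (ENSMUSG00000026864, chromosome 2, 34771970 to 34777547) stood apart. It was at 108, 130 and 132 FPKM in untreated macrophages and at 294, 341 and 315 FPKM after LPS, with no overlap. The log2 difference was 1.36 (SE 0.07, adjusted p 5.46e-09), against 0.72 (adjusted p 2.15e-06) under TPM and 0.55 (adjusted p 1.23e-05) under quantile normalization. As deposited, 6 more of the 14 rose, by log2 differences of 0.42 for Calr, 0.32 for Pdia6, 0.28 for Canx, 0.26 for Hsp90b1 and Pdia3 and 0.17 for Dnajb9, but none of these 6 was above its untreated level under TPM. The 7 called of 14 stood beside 69.9% of all genes called and 36.8% called higher. Calr and Canx encode the lectin chaperones calreticulin and calnexin, Hsp90b1 encodes GRP94, Pdia3 and Pdia6 encode disulfide isomerases, and Dnajb9 encodes a co-chaperone of BiP. The other 7, namely the isomerase gene Pdia4, the co-chaperone genes Dnajb11, Dnajc3 and Sdf2l1, the secreted factors Manf and Creld2, and the large chaperone gene Hyou1, did not pass the test as deposited, with log2 differences of 0.01 to 0.26. The median over all 14 was 0.24 as deposited, beside 0.02 over all genes tested, but -0.41 under TPM, beside -0.55, and -0.41 under quantile normalization, beside -0.14.

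The libraries of untreated macrophages were not alike in the folding genes. Replicate 1 was the lowest of its group for 14 of the 14 genes, whereas it was the lowest for 38.0% of all genes tested, and the 14 genes summed to 1063 FPKM there against 1259 and 1256 FPKM in replicates 2 and 3. Among LPS-treated macrophages, replicate 2 was the highest for 13 of the 14 genes (33.6% of all genes), and the sums were 1494, 1761 and 1624 FPKM. Osteoclast libraries had sums of 1529 to 1564 FPKM without and 1601 to 1637 FPKM with LPS. Without untreated macrophage replicate 1 the log2 difference was 0.23 for Pdia6 and 0.12 for Dnajb9, and without LPS-treated macrophage replicate 2 it was 0.22 and 0.14, and neither gene then passed the test. The value of Hsp90b1 was 0.17 without untreated macrophage replicate 1. Dnajb9 also lost its call without LPS-treated macrophage replicate 1, where its value was 0.14. That of Hspa5 stayed called with any 1 library left out.

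**Figure D2:**
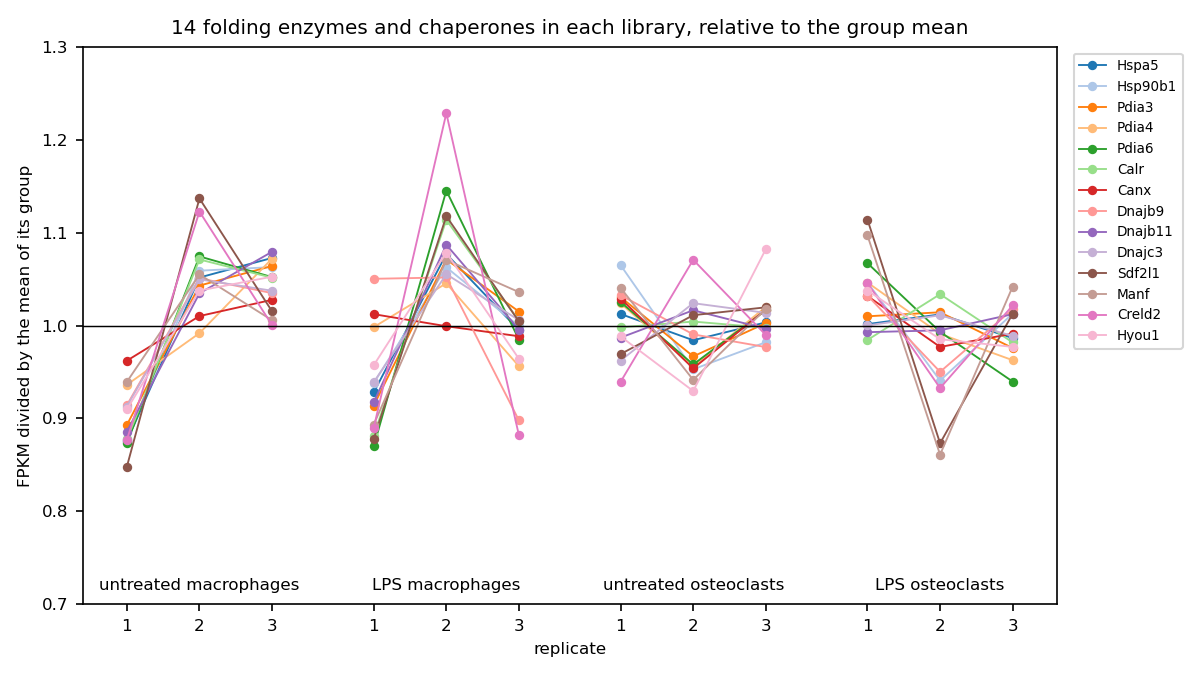
FPKM of the 14 folding enzymes and chaperones in each library, divided by the mean of the 3 libraries of its group (vertical axis, no unit); the horizontal axis gives the replicate within each group, and lines join the values of 1 gene without implying an order of replicates. All 14 genes lie below 1 in untreated macrophage replicate 1, and 13 of 14 are highest in LPS-treated macrophage replicate 2, while osteoclast replicates show no such common shift.

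The 4 genes of ER-associated degradation rose after LPS as deposited, as did 36.8% of all genes, but Sel1l and Edem1 turned below 0 under TPM. Herpud1 (ENSMUSG00000031770, chromosome 8, 94386438 to 94395377), whose product helps to assemble the degradation complex, was at 6.45, 5.34 and 6.33 FPKM in untreated and at 15.7, 18.1 and 15.9 FPKM in LPS-treated macrophages. The groups did not overlap, and the log2 difference was 1.32 (SE 0.07, adjusted p 1.01e-08), with 0.78 under TPM and 1.11 under quantile normalization. Syvn1, the gene of the ubiquitin ligase HRD1, rose from 7.23, 8.13 and 8.21 to 13.0, 14.3 and 13.4 FPKM, a log2 difference of 0.72 (SE 0.05, adjusted p 1.71e-07) that was 0.14 (adjusted p 0.0551) under TPM and 0.50 under quantile normalization. Sel1l, the partner of HRD1, had 0.51 as deposited and -0.12 under TPM, and Edem1, a lectin that hands glycoproteins to degradation, had 0.33 as deposited, -0.31 under TPM and -0.35 under quantile normalization.

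Counted together, limma called 20 of the 29 genes in macrophages, 16 higher and 4 lower, where 69.9% of all genes tested were called, 36.8% higher and 33.1% lower. The share called, 69.0%, was near that background. A log2 difference of at least 1 was reached by 6 of the 29, against 18.4% of all genes, and for 20 the groups had no overlapping libraries, against 74.0% of all genes. The split of directions rested on the scaling: 16 rose and 4 fell as deposited, 3 rose and 23 fell under TPM (15.9% and 70.0% of all genes), and 6 rose and 18 fell under quantile normalization (26.9% and 45.8% of all genes). The median of all genes was 0.02 as deposited, -0.55 under TPM and -0.14 under quantile normalization. Relative to that median, 23 of the 29 genes were above it as deposited, 22 under TPM and 10 under quantile normalization. Which scaling is nearer to RNA per cell was not tested.

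**Figure D3:**
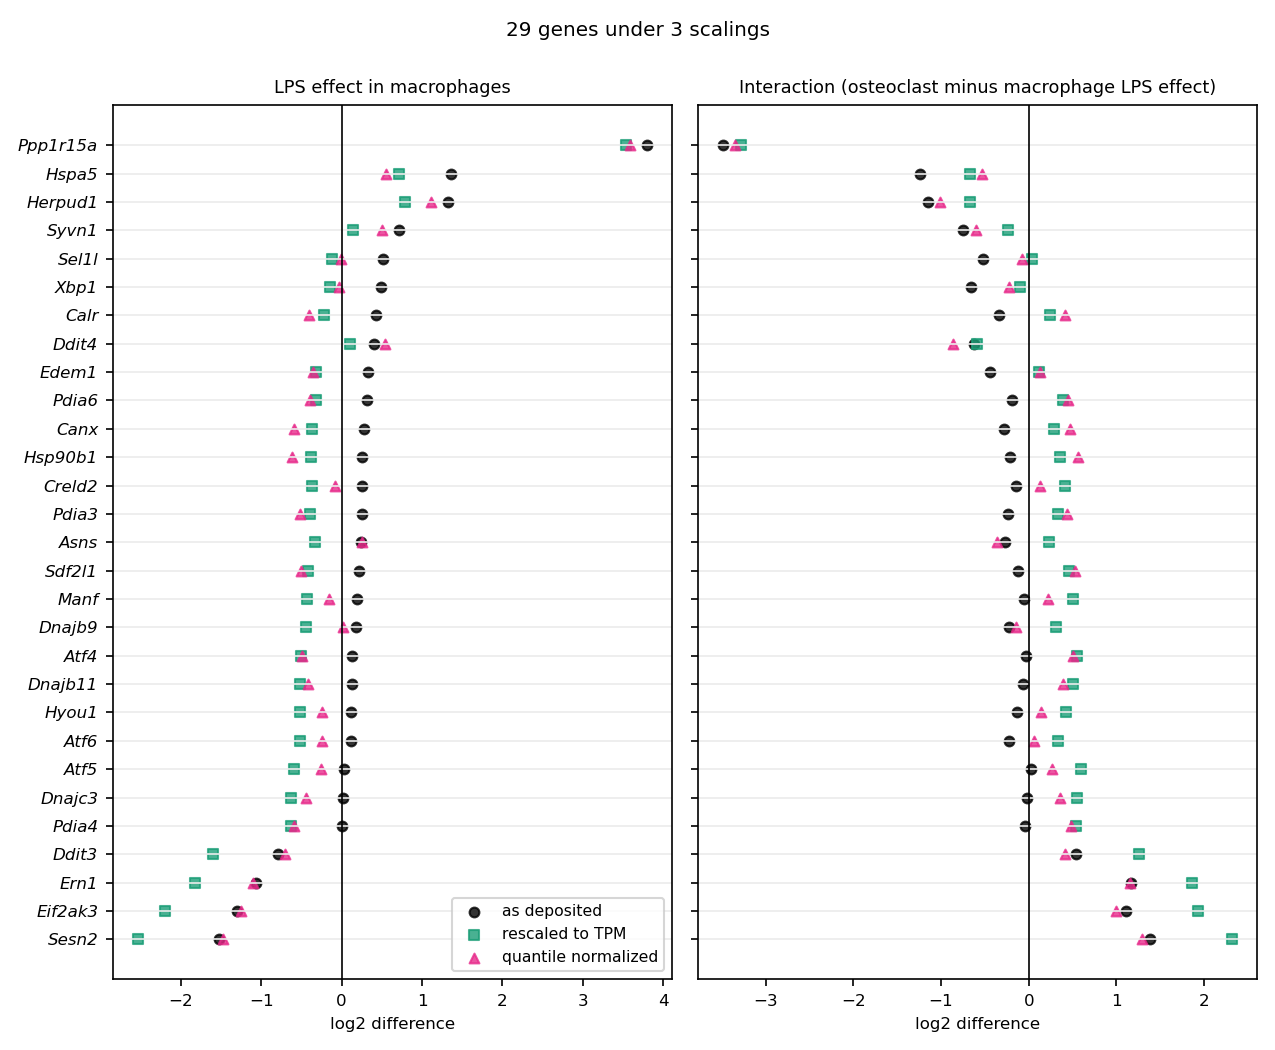
Log2 difference (horizontal axes) of the 29 genes for the LPS effect in macrophages (left) and for the interaction, osteoclast minus macrophage LPS effect (right), with the values as deposited (circles), rescaled to TPM (squares) and quantile normalized (triangles). Ppp1r15a, Hspa5 and Herpud1 stay above 0 on the left and Ddit3, Ern1, Eif2ak3 and Sesn2 stay below 0 under the 3 scalings, while most genes between them cross 0.

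In osteoclasts the same exposure to LPS gave 1 called gene among the 29, which was Xbp1. The number called was 2 under TPM, 8 under quantile normalization and 4 with voom, where 19.1%, 21.7% and 21.3% of all genes were called. It was 3 with only the groups compared and 0 without a filter, where 12.3% and 6.35% of all genes were called, and Xbp1 lost its call in both (adjusted p 0.114 and 0.0963). With the replicate number as a block, Edem1 was called in place of Xbp1 (adjusted p 0.0715). The level of Xbp1 went from 33.0, 29.0 and 30.6 FPKM to 26.6, 28.8 and 26.2 FPKM. Of all genes tested, 17.7% were called, 11.1% higher and 6.59% lower. Its log2 difference was -0.18 (SE 0.05, adjusted p 0.0463), each LPS-treated library lay below each untreated one, and the direction and call stood under TPM (-0.25) and quantile normalization (-0.26). The call was nevertheless lost when either osteoclast replicate 1 or 3 was left out, with or without LPS (values of -0.13 to -0.18), and when any of LPS-treated macrophage replicates 1 to 3 or untreated macrophage replicate 3 was left out of the shared fit.

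The genes with the large macrophage responses had small ones here. Ppp1r15a was at 17.2, 17.2 and 17.8 FPKM in untreated and at 20.7, 23.2 and 21.5 FPKM in LPS-treated osteoclasts, a log2 difference of 0.31 (SE 0.11, adjusted p 0.0689). Hspa5 was at 179, 174 and 177 FPKM without and at 192, 194 and 189 FPKM with LPS (log2 difference 0.12, adjusted p 0.296), and Herpud1 had a log2 difference of 0.18 (adjusted p 0.131). The libraries of all 3 genes did not overlap between the osteoclast groups, but none of the 3 passed the test. Eif2ak3 was at 9.89, 10.6 and 10.7 FPKM and at 8.51, 10.1 and 8.53 FPKM, Ern1 at 8.33, 8.93 and 9.68 FPKM and at 8.98, 10.8 and 9.45 FPKM, and Sesn2 at 6.05, 7.03 and 6.81 FPKM and at 6.09, 5.90 and 5.82 FPKM. For Eif2ak3, Ern1 and Sesn2 the osteoclast groups overlapped. Ddit3 was at 6.55, 6.70 and 6.11 FPKM without and 5.07, 5.61 and 5.05 FPKM with LPS, with no overlap and a log2 difference of -0.26 (adjusted p 0.0719). No gene of the 29 reached a log2 difference of 1, against 2.30% of all genes. For 11 of the 29 genes the osteoclast groups did not overlap, against 34.0% of all genes, and the median log2 difference was -0.01, beside 0.01 over all genes.

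**Figure D4:**
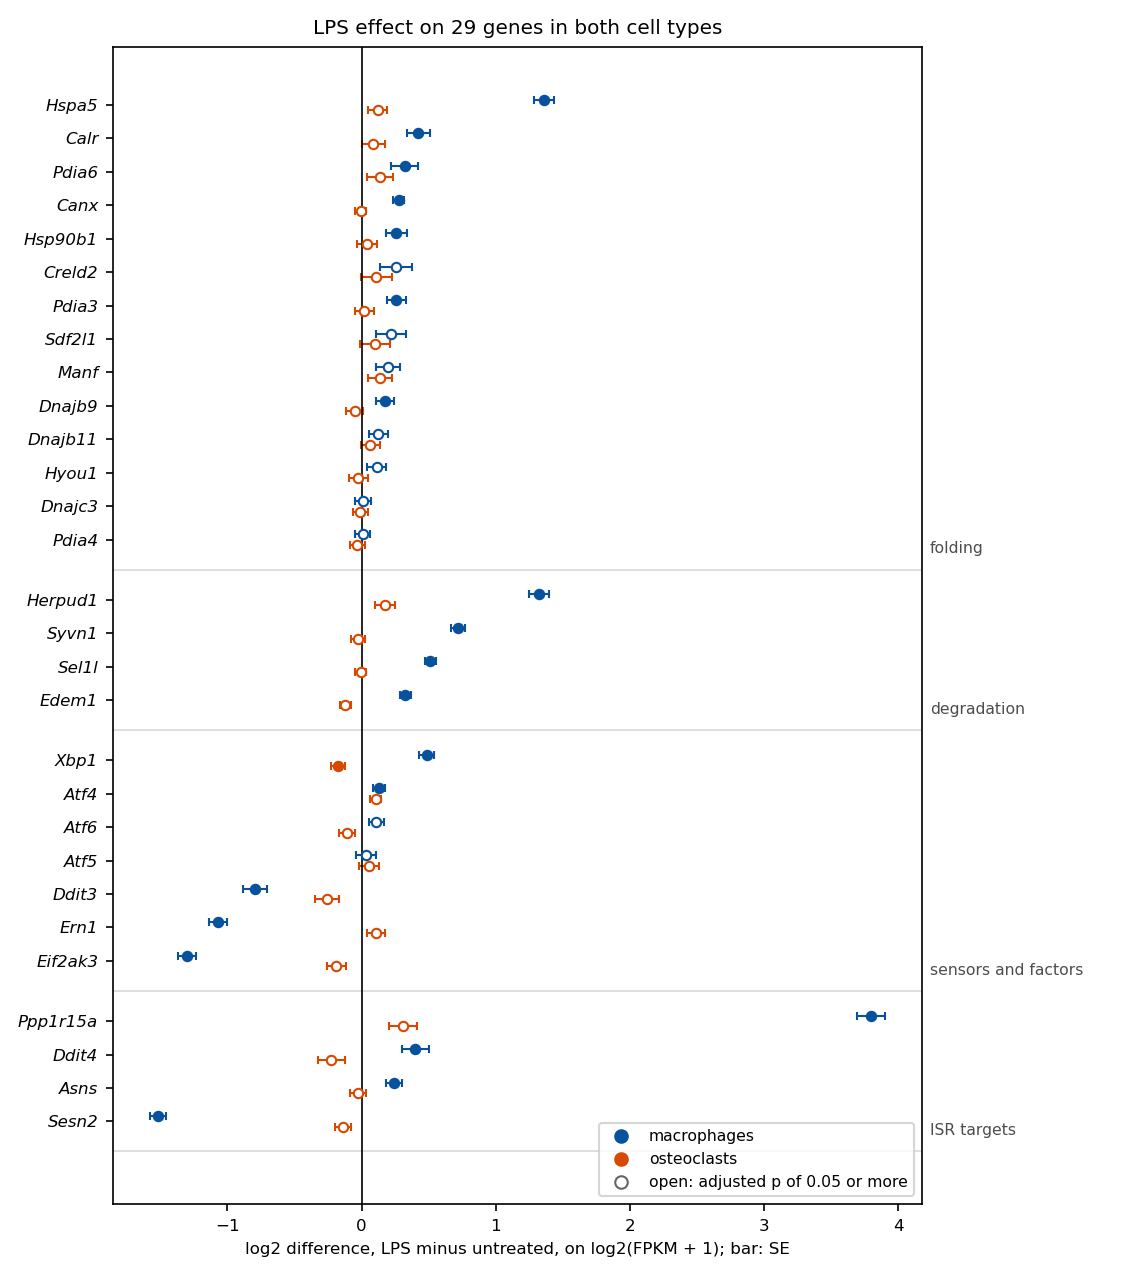
Log2 difference between LPS-treated and untreated cells (horizontal axis, log2(FPKM + 1) scale as deposited) for the 29 genes by role, in macrophages (blue) and osteoclasts (orange), with bars for the SE and open symbols where the adjusted p was 0.05 or more. Macrophage values run from -1.52 for Sesn2 to 3.80 for Ppp1r15a and osteoclast values from -0.26 for Ddit3 to 0.31 for Ppp1r15a; under TPM, 23 of the 29 macrophage values are called below 0 and 3 above.

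The difference between the LPS effects was tested directly as an interaction, the effect in osteoclasts minus that in macrophages. It was called for 16 of the 29 genes, 4 above and 12 below 0, where 56.6% of all genes were called, 26.6% above and 30.0% below 0, and it reached 1 on the log2 scale for 6 of the 29, against 15.6% of all genes. It was -3.49 for Ppp1r15a (SE 0.15, adjusted p 2.80e-09), -1.24 for Hspa5 (SE 0.10, adjusted p 7.16e-07) and -1.14 for Herpud1 (SE 0.11, adjusted p 1.99e-06). It was 1.38 for Sesn2 (SE 0.08, adjusted p 5.51e-08), 1.17 for Ern1 (SE 0.09, adjusted p 6.07e-07), 1.11 for Eif2ak3 (SE 0.10, adjusted p 1.15e-06) and 0.54 for Ddit3 (SE 0.13, adjusted p 0.00318). These 7, Syvn1 (-0.75) and Ddit4 kept direction and call under the 3 scalings, as did 23.1% of all genes above and 13.4% below 0. The value of Ddit4 was -0.63, and its place among the genes tested came through LPS-treated macrophages, the group where it is highest. Over all 29 genes the direction turned with the scaling: 4 interactions were called above and 12 below 0 as deposited, 19 above and 5 below under TPM (63.3% and 13.9% of all genes), and 15 above and 7 below under quantile normalization (36.1% and 24.1%), where the median of all genes was -0.01, 0.51 and 0.09. The interactions of Calr (-0.34, adjusted p 0.0329) and Atf6 (-0.22, adjusted p 0.0338) also lost their call when 1 of several libraries was left out: for both, untreated macrophage replicate 1, LPS-treated macrophage replicates 2 and 3, untreated osteoclast replicates 2 and 3 and LPS-treated osteoclast replicate 1, for Calr also untreated osteoclast replicate 1 and LPS-treated osteoclast replicate 3, and for Atf6 also untreated macrophage replicate 2 (values of -0.34 to -0.16).

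The baseline of the pathway in each cell type came from the libraries without LPS. Untreated osteoclasts had more mRNA of Eif2ak3, Atf4, Ddit3, Asns and Ppp1r15a and of the calreticulin gene Calr, and less of the disulfide isomerase genes Pdia3, Pdia4 and Pdia6, of Sdf2l1 and of Atf5. Higher levels that kept direction and call under the 3 scalings were found for 10 genes (Ppp1r15a, Asns, Calr, Herpud1, Eif2ak3, Ddit3, Dnajb9, Atf4, Edem1 and Sesn2), and lower ones for 9 (Sdf2l1, Atf5, Pdia4, Pdia6, Pdia3, Creld2, Sel1l, Hyou1 and Hsp90b1), beside 24.3% and 35.7% of all genes. Limma called 26 of the 29 genes, 16 higher and 10 lower in osteoclasts, where 77.8% of all genes were called, 38.8% higher and 39.0% lower. A log2 difference of at least 1 was reached by 8 of the 29, against 27.7% of all genes, and the groups did not overlap for 24, against 81.4% of all genes. The split was 10 higher and 14 lower under TPM, beside 24.3% and 57.0% of all genes, and 14 higher and 11 lower under quantile normalization, beside 40.4% and 38.1%. The median was 0.27, beside 0.00 over all genes, under TPM -0.11, beside -0.38, and under quantile normalization 0.11, beside 0.03.

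Among the higher genes, Asns (ENSMUSG00000029752, chromosome 6, 7675169 to 7693254) was at 3.79, 4.40 and 4.22 FPKM in macrophages and at 16.1, 15.7 and 15.1 FPKM in osteoclasts. The groups lay far apart, at a log2 difference of 1.70 (SE 0.06, adjusted p 7.37e-11), or 3.78-fold by the means. Ppp1r15a was 8.36-fold higher (log2 difference 2.59, SE 0.11, adjusted p 3.28e-10), and its untreated osteoclast libraries, at 17.2 to 17.8 FPKM, lay between the untreated and the LPS-treated macrophage libraries. Atf4 (ENSMUSG00000042406, chromosome 15, 80255184 to 80257541) was at 47.2, 47.6 and 46.8 FPKM in macrophages and at 85.0, 87.6 and 85.5 FPKM in osteoclasts, a log2 difference of 0.85 (SE 0.04, adjusted p 2.20e-09). Eif2ak3 had a log2 difference of 1.11 (adjusted p 1.49e-08) and Ddit3 one of 1.06 (adjusted p 2.94e-07). Sesn2 had 0.58 (adjusted p 2.00e-06), and the groups did not overlap for any of these genes. Ern1 was called higher as deposited (0.36) but was at -0.01 under TPM, and Xbp1 was not called as deposited (0.11, adjusted p 0.0922) and was at -0.30 under TPM.

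The folding genes divided between the cell types. Calr (ENSMUSG00000003814, chromosome 8, 84841850 to 84846934) was at 277, 338 and 332 FPKM in macrophages and at 740, 744 and 739 FPKM in osteoclasts, the highest of the 29 genes in that group. Its log2 difference was 1.23 (SE 0.09, adjusted p 4.64e-08). Sdf2l1 (ENSMUSG00000022769, chromosome 16, 17130138 to 17132383), a component of a BiP cofactor complex, went the other way, from 51.8, 69.4 and 62.0 FPKM in macrophages to 25.2, 26.3 and 26.5 FPKM in osteoclasts, that is -1.19 on the log2 scale (SE 0.11, adjusted p 9.96e-07). The disulfide isomerase genes Pdia4, Pdia6 and Pdia3 were lower by -0.77, -0.73 and -0.38 on the log2 scale. Dnajb9 was higher (0.95), and Manf and Dnajc3 did not pass (-0.02 each). Hspa5 was called higher as deposited (0.52) but not under TPM (0.11) or quantile normalization (0.11). Of the genes called, Creld2 (-0.31), Hsp90b1 (-0.20) and Hyou1 (-0.22) lost their call when 1 library was left out: Creld2 and Hsp90b1 without untreated macrophage replicate 2 or 3 or untreated osteoclast replicate 3, Creld2 also without untreated osteoclast replicate 1, and Hsp90b1 and Hyou1 without untreated osteoclast replicate 2, with values of -0.31 to -0.16. Atf5 was at 12.2, 11.9 and 13.5 FPKM in macrophages and at 4.68, 5.29 and 5.55 FPKM in osteoclasts, a log2 difference of -1.13 (SE 0.07, adjusted p 2.38e-08), opposite to Atf4.

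Markers of other cells also differed between the cell types. The 10 stromal and osteoblast markers summed to between 27.4 and 38.1 FPKM in macrophage libraries and between 0.765 and 1.86 FPKM in osteoclast libraries, led by Col1a1 at up to 23.2 FPKM. The 10 neutrophil markers summed to between 5.70 and 16.4 FPKM in macrophages and between 0.305 and 1.88 FPKM in osteoclasts. The 10 B and plasma cell markers summed to between 17.0 and 20.3 FPKM against 0.182 to 0.372 FPKM, nearly all from Ighm. The 8 T and NK cell markers summed to between 0.432 and 0.734 FPKM in macrophages and between 2.95 and 4.04 FPKM in osteoclasts, led by Trac at up to 3.96 FPKM, with Cd3g, Cd3d, Cd8a, Ncr1 and Nkg7 at 0. The 8 erythroid and mast cell markers summed to at most 0.443 FPKM, with Hbb-bs at 0. Their part in the differences of the folding genes was not tested. In these bulk libraries, fewer cells of a type and less RNA per cell cannot be told apart.

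**Figure D5:**
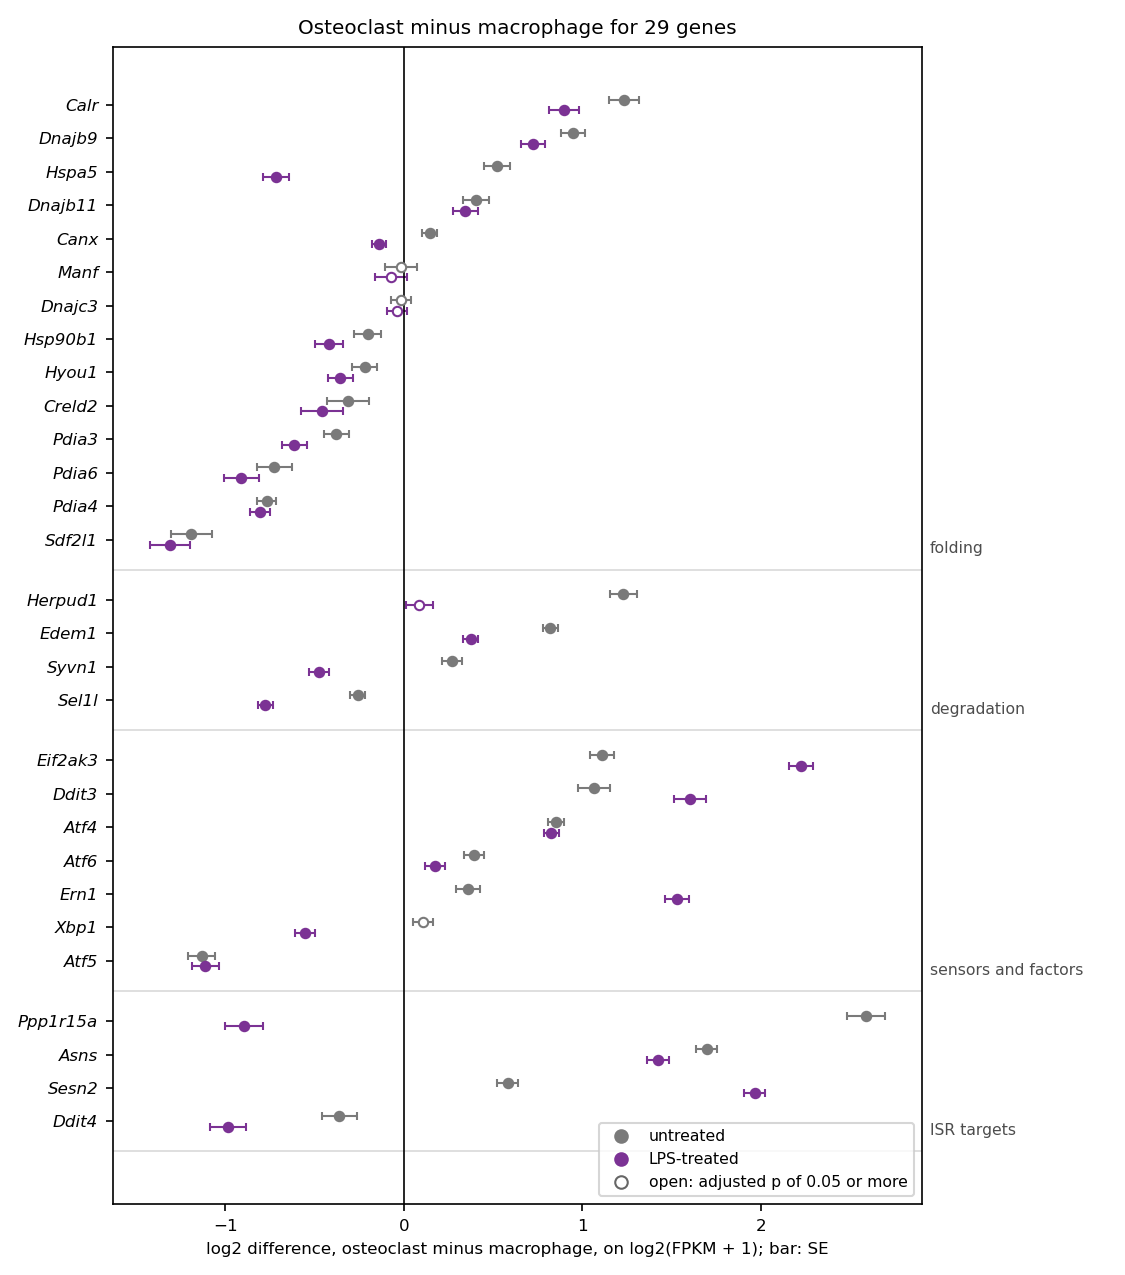
Log2 difference between osteoclasts and macrophages (horizontal axis, log2(FPKM + 1) scale as deposited, positive where osteoclasts are higher) for the 29 genes by role, untreated (grey) and LPS-treated (purple), with bars for the SE and open symbols where the adjusted p was 0.05 or more. Untreated values run from -1.19 for Sdf2l1 to 2.59 for Ppp1r15a; for Ppp1r15a, Hspa5, Syvn1, Canx and Xbp1 (open without LPS) the symbols lie on opposite sides of 0, where under TPM untreated Hspa5 is not called (0.11), untreated Syvn1 and Canx are at -0.11 and -0.27 and LPS-treated Canx is at 0.02.

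With LPS in both cell types, Ppp1r15a was lower in osteoclasts, the reverse of its order without LPS, and this exchange held under the 3 scalings. Limma called 26 of the 29 genes, 11 higher and 15 lower in osteoclasts, where 83.9% of all genes were called, 40.9% higher and 43.0% lower, and 7 of the 29 reached a log2 difference of 1, against 36.5% of all genes. The groups did not overlap for 26 genes, against 83.6% of all genes. The largest differences of the 29 on the log2(FPKM + 1) scale were at genes that LPS lowered in macrophages: Eif2ak3 was 7.91-fold higher in LPS-treated osteoclasts (log2 difference 2.23, SE 0.07, adjusted p 1.75e-11), Sesn2 7.65-fold (1.97, SE 0.06, adjusted p 1.62e-11), Ddit3 4.90-fold (1.60, SE 0.09, adjusted p 4.27e-09) and Ern1 3.59-fold (1.53, SE 0.07, adjusted p 4.16e-10). The value of Ppp1r15a was -0.90 (SE 0.11, adjusted p 6.04e-06). Hspa5 was lower with LPS (-0.72, adjusted p 1.28e-06), but its higher level without LPS was not called under TPM (0.11). Herpud1 was close in both, at 15.7 to 18.1 FPKM in macrophages and 16.6 to 18.7 FPKM in osteoclasts (log2 difference 0.09, adjusted p 0.293, and 0.25, adjusted p 0.0209, under TPM). Ddit4 was lower in osteoclasts (-0.99, adjusted p 1.31e-06), 6.92-fold by the ratio of mean FPKM, on 19 reads over the 3 LPS-treated osteoclast libraries, a direction that its passing of the filter through macrophages favoured.

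Across both states, 11 genes were higher in osteoclasts (Asns, Atf4, Atf6, Calr, Ddit3, Dnajb11, Dnajb9, Edem1, Eif2ak3, Ern1 and Sesn2), 10 were lower (Atf5, Creld2, Ddit4, Hsp90b1, Hyou1, Pdia3, Pdia4, Pdia6, Sdf2l1 and Sel1l), and Canx, Hspa5, Ppp1r15a and Syvn1 were called in both states with opposite directions, all as deposited. Of all genes tested, 30.8% were called higher in both states, 30.6% lower in both and 8.18% in opposite directions. The difference of Atf6 with LPS (0.17) lost its call without LPS-treated osteoclast replicate 2, where it was 0.14. The LPS contrasts and the cell type contrasts share groups and are not independent of each other.

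The pathway was also followed through 110 further genes in 4 lists, of which 98 were tested: other folding and translocation genes, other degradation genes, other sensors and transcription factors, and other ATF4 targets. In macrophages, LPS raised 52 and lowered 19 of the 98 as deposited, with 15 and 73 under TPM and 24 and 52 under quantile normalization, and 15 and 19 of them kept direction and call under the 3 scalings. In osteoclasts it raised 16 and lowered 2 (11 and 3 under TPM, 9 and 7 under quantile normalization), and 9 and 2 kept direction and call. Untreated osteoclasts had 60 higher and 26 lower (34 and 37 under TPM, 59 and 31 under quantile normalization), of which 34 and 26 kept direction and call. Of all genes, 15.5% and 31.0%, 7.68% and 6.49%, and 24.3% and 35.7% kept direction and call in these 3 comparisons. Of all genes, LPS in macrophages raised 15.9% and lowered 70.0% under TPM, and 26.9% and 45.8% under quantile normalization. For LPS in osteoclasts these shares were 8.29% and 10.8%, and 8.35% and 13.4%, and for untreated osteoclasts against macrophages 24.3% and 57.0%, and 40.4% and 38.1%. The shares of the 98 called as deposited, 72.4%, 18.4% and 87.8%, stood beside 69.9%, 17.7% and 77.8% of all genes.

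Ppp1r15b and Eif2ak4, of the genes named from these lists, act on eIF2α. Ppp1r15b, which encodes the constitutive phosphatase subunit CReP, went from 18.7, 18.0 and 19.2 FPKM to 136.3, 140.4 and 138.1 FPKM in macrophages, with no overlap, a log2 difference of 2.83 (SE 0.04, adjusted p 5.38e-14). In osteoclasts it went from 14.1, 14.5 and 14.2 to 17.7, 17.7 and 18.5 FPKM, a log2 difference of 0.31 (adjusted p 5.95e-05). Both genes of regulatory subunits of this phosphatase, Ppp1r15a and Ppp1r15b, thus had their highest levels in LPS-treated macrophages. Eif2ak4, the gene of the amino acid sensing kinase GCN2, fell in macrophages from 4.82, 4.96 and 5.03 to 2.27, 2.38 and 2.25 FPKM (log2 difference -0.85, adjusted p 7.59e-09), as Eif2ak3 did, and had a value of -0.10 in osteoclasts (adjusted p 0.189). The other eIF2α kinase genes, added after their values were seen, were Eif2ak2 (PKR), which rose in macrophages (2.47, adjusted p 1.27e-09) and osteoclasts (0.45, adjusted p 0.0174, a call lost without untreated osteoclast replicate 1 or 2, at 0.42 and 0.38, with only the groups compared and without a filter), and Eif2ak1 (HRI), which was called in neither as deposited (0.04 and -0.06).

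Among the other ATF4 targets and partners, the cystine transporter gene Slc7a11 went from 0.291, 0.278 and 0.258 to 51.4, 42.8 and 44.7 FPKM in macrophages and from 0.257, 0.276 and 0.237 to 3.72, 2.12 and 4.07 FPKM in osteoclasts. It rose in both cell types, by 5.21 in macrophages (SE 0.14, adjusted p 1.41e-11) and by 1.74 in osteoclasts (SE 0.14, adjusted p 4.39e-06), with an interaction of -3.47 (adjusted p 3.87e-08). It passed the filter only through its 6 LPS-treated libraries, which favoured a rise. Nupr1, a stress-induced chromatin protein, rose by 5.11 and 0.97, and Jdp2, a partner of AP-1 factors, by 4.41 in macrophages. Lower in LPS-treated macrophages were the amino acid transporter gene Slc38a2 (-1.50), Cebpg, a partner of ATF4 (-1.25), and Vegfa (-0.69). Vegfa went the other way in osteoclasts (0.56, adjusted p 0.000189), with an interaction of 1.25 (adjusted p 7.43e-07). The other highest and lowest genes in osteoclasts were Atf3 (1.24) and Gdf15 (0.58, adjusted p 0.0372), and Ero1b (-0.27) and Edem3 (-0.26). Gdf15 lost its call under quantile normalization (0.51, adjusted p 0.0587), without a filter, with only the groups compared and with the replicate block. It also lost it without untreated macrophage replicate 2, LPS-treated macrophage replicate 3, or replicate 1 or 2 of either osteoclast group (values of 0.44 to 0.60).

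Without LPS, Jdp2 was at 8.98, 10.4 and 8.28 FPKM in macrophages and at 331.5, 357.4 and 345.9 FPKM in osteoclasts, or 5.08 on the log2 scale (SE 0.09, adjusted p 1.87e-13). The groups were wide apart. Next among the higher genes were the glutamine transporter gene Slc1a5 (3.16), Eif4ebp1, which encodes a repressor of translation initiation (2.32), and the ER-bound transcription factor gene Creb3l2 (2.07). Lowest were Atf3 (-3.30), Cebpb (-2.44), Psat1, an enzyme of serine synthesis (-2.19), and Gdf15 (-1.69). Gdf15 passed the filter without untreated osteoclasts, which were all under 1 FPKM, so its lower value there was favoured and is a description. Of the ATF4 targets, Asns and Slc1a5 were thus higher in osteoclasts and Psat1 lower. Of the 31 other ATF4 targets tested, 22 were called higher and 5 lower as deposited, beside 38.8% and 39.0% of all genes. The counts were 16 and 7 under TPM, beside 24.3% and 57.0%, and 24 and 6 under quantile normalization, beside 40.4% and 38.1%.

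Overlap of exons with an opposite-strand gene makes the values of Hsp90b1, Pdia3, Pdia6, Dnajb9, Manf, Syvn1, Eif2ak3, Atf5, Ddit3 and Ppp1r15a uncertain, since whether reads were counted by strand is not given in the sources used here. Hsp90b1, Pdia4, Manf and Ddit3 also overlap the exons of a same-strand gene.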

How the data were processed

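RNA was sequenced from 12 libraries, 3 in each of 4 groups taken from the sample titles. The authors deposited FPKM values for 54532 Ensembl genes; the submitters' processing notes name fastp, STAR, featureCounts, DESeq2 and the build mm10, with no versions or order. Nearly all FPKM values were whole multiples of a step per gene: whole reads (tolerance 0.02) fitted GENCODE M21 exon lengths on GRCm38 for 96.8% of the 25854 genes above 0. The FPKM columns had sums between 255852 and 408994, so a difference depends on the scaling, and values as deposited, rescaled to TPM and quantile normalized are compared. Library totals of 15651770 to 20281456 reads were recovered in this way. The authors' scaling did not follow these totals alone. Hspa5 held 10564 reads at 107.8 FPKM in untreated macrophage replicate 1, and 15866 reads at 293.9 FPKM in LPS-treated macrophage replicate 1. Those libraries held 18480430 and 15945681 reads.

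A gene was tested where 3 or more libraries reached 1 FPKM, with limma 3.58.1 in R 4.3.3 (variance trend, 1 fit of 4 group means) on log2(FPKM + 1), two-sided, with Benjamini-Hochberg adjustment over all 11335 genes and calls at an adjusted p under 0.05. The members and lists were chosen with earlier results of these data known, so lists are described by counts and medians and not tested. All 32 members could be named; of the further lists, the 4 highest and 4 lowest called genes (mean FPKM of 1 or more) in each LPS effect and the untreated cell type contrast. On simulated data, 94.8% of 194 genes changed in macrophages were called among 10854 tested, and 4.17% of the calls were false. The log2 difference given to these genes was 1 for 87 and 2 for 107, of which 90.8% and 98.1% were called. Recovery of differences under 1 was not tested. Besides TPM and quantile normalization, the alternatives tried were leaving out each library, limma's voom on whole reads, a block for the replicate number, fits of the compared groups alone, a pseudocount of 0.1, a mean FPKM of 5 or more, and no filter. The library sizes given to voom were those implied by the FPKM values, so voom kept the deposited scaling and was not a check of it. A second annotated gene named Ddit3 is listed at 0 in every library and was not used.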

Additional observations from a re-analysis of the deposited data

Results flagged for a closer look

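For 16 genes the LPS effect in osteoclasts differed from that in macrophages by the test of the interaction (osteoclast minus macrophage effect, log2 scale, adjusted p under 0.05 in limma, values as deposited). It was below 0 for Ppp1r15a (-3.49), Hspa5 (-1.24), Herpud1 (-1.14), Syvn1 (-0.75), Xbp1 (-0.66), Ddit4 (-0.63, tested through macrophages, where it is highest), Sel1l (-0.52), Edem1 (-0.45), Calr (-0.34), Canx (-0.28), Asns (-0.27) and Atf6 (-0.22). It was above 0 for Sesn2 (1.38), Ern1 (1.17), Eif2ak3 (1.11) and Ddit3 (0.54). Under TPM, the values of Calr, Canx, Edem1, Sel1l, Asns and Atf6 were above 0, and that of Xbp1 lost its call. No group holds more than 3 libraries, so no library was tested as standing apart.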

How the results depend on the processing

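The number of the 29 genes called stayed within 1.5 times its main value in every alternative for 4 of the 5 comparisons. With 1 library left out, it was 18 to 23 for LPS in macrophages, 24 to 26 for untreated and 25 to 26 for LPS-treated osteoclasts against macrophages, and 14 to 17 for the interaction. For LPS in osteoclasts the main value of 1 was 2 with a pseudocount of 0.1, at a mean of at least 5 FPKM and under TPM, 0 without a filter (more genes tested), 8 under quantile normalization, 3 with only the groups compared, 4 with voom and 0 to 3 with 1 library left out. Of 2856 values of single genes under alternatives, 2670 kept their side of the threshold, 59 lost a call, 51 gained a call and 76 reversed; of the 2670, 51 changed sign with neither value called. With the replicate number as a block, 21 genes were called for LPS in macrophages, 1 for LPS in osteoclasts (Edem1 in place of Xbp1), 26 in each cell type comparison and 16 for the interaction; the numbers were not taken as pairs, since the deviations of same-numbered libraries from their group means had a Pearson r of -0.07 to 0.104, and not every library correlated best with its own number. For replicates 1 to 3, this r was 0.072, 0.083 and 0.029 between the osteoclast groups. Between the macrophage groups it was 0.104, 0.097 and -0.053. Over the 5 comparisons, the block gained 3 calls and lost 2. Leaving out libraries leaves 2 in a group, whose spread is taken from the shared fit. Depth limits Ddit4, Trib3, Chac1 and Vldlr.

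Reversals of direction, counted where the sign changed and the value was called as deposited or under the alternative, arose under TPM and quantile normalization only, 76 in all; the cause was not tested. For the LPS effect in macrophages under TPM, the log2 differences were Hsp90b1 -0.39, Pdia3 -0.39, Pdia4 -0.64, Pdia6 -0.32, Calr -0.22, Canx -0.37, Dnajb9 -0.44, Dnajb11 -0.51, Dnajc3 -0.63, Sdf2l1 -0.42, Manf -0.43, Creld2 -0.37, Hyou1 -0.52, Edem1 -0.31, Sel1l -0.12, Xbp1 -0.15, Atf6 -0.52, Atf4 -0.51, Atf5 -0.60 and Asns -0.33. For the LPS effect in macrophages under quantile normalization, the log2 differences were Hsp90b1 -0.62, Pdia3 -0.52, Pdia4 -0.59, Pdia6 -0.39, Calr -0.41, Canx -0.59, Dnajb11 -0.42, Dnajc3 -0.45, Sdf2l1 -0.50, Hyou1 -0.24, Edem1 -0.35, Sel1l -0.0028, Xbp1 -0.038, Atf6 -0.24, Atf4 -0.50 and Atf5 -0.26. For the interaction under TPM, the log2 differences were Hsp90b1 0.36, Pdia3 0.34, Pdia4 0.53, Pdia6 0.39, Calr 0.24, Canx 0.29, Dnajb9 0.32, Dnajb11 0.51, Dnajc3 0.55, Sdf2l1 0.45, Manf 0.51, Creld2 0.41, Hyou1 0.42, Edem1 0.12, Sel1l 0.040, Atf6 0.34, Atf4 0.55 and Asns 0.23. For the interaction under quantile normalization, the log2 differences were Hsp90b1 0.57, Pdia3 0.44, Pdia4 0.49, Pdia6 0.45, Calr 0.41, Canx 0.47, Dnajb11 0.39, Dnajc3 0.36, Sdf2l1 0.53, Edem1 0.13, Atf6 0.058 and Atf4 0.51. For untreated osteoclasts against macrophages under TPM, the log2 differences were Canx -0.27, Dnajb11 -0.0026, Syvn1 -0.11, Xbp1 -0.30, Atf6 -0.0041 and Ern1 -0.015. For untreated osteoclasts against macrophages under quantile normalization, the log2 differences were Canx -0.25. For LPS-treated osteoclasts against macrophages under TPM, the log2 differences were Canx 0.018. For LPS-treated osteoclasts against macrophages under quantile normalization, the log2 differences were Canx 0.23 and Dnajc3 0.20.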
